A study of Mus musculus with 6 samples.

Results

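The 3 genes of the mouse Tribbles family, Trib1, Trib2 and Trib3, were followed in cultured mast cells that lacked the microRNA miR-155 and in wild-type mast cells. The genes were taken by symbol from the deposited value table, 1 probe set each, and are 3 of the 19938 genes with a symbol of their own on the array. The family was chosen by the measured log2 differences between KO and WT arrays, including their opposite directions, so its own differences are given here as a description, without a test.

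The cells were bone marrow-derived mast cells (BMMC) from C57BL/6J mice, either mir-155 KO (3 cultures) or wild type (WT, 3 cultures). All 6 cultures had been grown for 5 weeks in IL-3 at 0.5 ng/ml and SCF at 1 ng/ml, loaded overnight with anti-DNP IgE at 0.2 µg/ml and stimulated for 1 h with the antigen DNP-HSA at 20 ng/ml. Each culture was hybridised to 1 Affymetrix Mouse Gene 1.0 ST array, and the values are log2 intensities. No array of unstimulated cells was analysed here, so the comparison is of genotypes after stimulation and not of the response to antigen. The allele behind the knockout is not given in the sources used here. The mast cell genes Fcer1a (the IgE-binding receptor chain), Kit (the SCF receptor) and Cpa3 (a granule protease) averaged 12.10, 11.82 and 12.97 in KO arrays and 12.06, 11.89 and 12.78 in WT arrays. Other mast cell genes differed more: over the 13 measured, KO minus WT ran from -0.29 (Mitf) to 0.84 (Hdc). The probe set of Mir155, the deleted gene, read 2.86 ± 0.08 in KO and 2.99 ± 0.15 in WT arrays (log2, SD, n = 3 each), under the array medians of 3.67 to 3.74 in both, and so checks neither the deletion nor the labels. KO replicate 1 stood apart from the other arrays, at 32.0 on the first principal component (48.3% of the variance), while the other KO arrays were at 5.36 and 7.31 and those of WT cells at -19.5 to -10.6.

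Tribbles proteins have the fold of a protein kinase but little or no catalytic activity, and act as adaptors. Their pseudokinase domain holds a substrate while their tail recruits the ubiquitin ligase COP1, which marks the substrate for destruction. The best known substrate of TRIB1 and TRIB2 is C/EBPα, a transcription factor of granulocyte differentiation, and either protein can drive myeloid leukaemia in mice when overexpressed. TRIB3 is known as a gene of the stress response, induced by the transcription factors ATF4 and CHOP when amino acids run short or proteins misfold, and its product has been described as a binding partner of the kinase AKT. In the mast cell lineage C/EBPα favours basophil and MITF mast cell fate.

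The sequences below show the missing microRNA and the promoters of Trib2 and Trib3, the members with the largest differences between genotypes; the promoter of Trib1 was not analysed here. They come from RefSeq's annotation of the mouse assembly GRCm38.p6. Mature miR-155-5p (chr16:84714143-84714165, plus strand) is given with its seed, bases 2 to 8, in capitals.
miR-155-5p: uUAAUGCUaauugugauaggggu
The promoters run from 250 bases before to 50 bases after the annotated start, Trib2 at chr12:15816736-15817035 and Trib3 at chr2:152344011-152344310, both on the minus strand and printed 5′ to 3′ along the gene. Capitals mark GC boxes (GGGCGG) and the C/EBP-ATF composite element (TGATGNAA, the kind of site that ATF4 and CHOP bind), each searched on both strands.
Trib2: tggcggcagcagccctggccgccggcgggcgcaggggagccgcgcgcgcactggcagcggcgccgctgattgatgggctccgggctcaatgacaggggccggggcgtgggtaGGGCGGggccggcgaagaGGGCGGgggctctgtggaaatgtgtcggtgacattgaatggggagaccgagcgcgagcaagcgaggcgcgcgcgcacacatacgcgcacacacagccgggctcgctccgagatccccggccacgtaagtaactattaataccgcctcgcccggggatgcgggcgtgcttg
Trib3: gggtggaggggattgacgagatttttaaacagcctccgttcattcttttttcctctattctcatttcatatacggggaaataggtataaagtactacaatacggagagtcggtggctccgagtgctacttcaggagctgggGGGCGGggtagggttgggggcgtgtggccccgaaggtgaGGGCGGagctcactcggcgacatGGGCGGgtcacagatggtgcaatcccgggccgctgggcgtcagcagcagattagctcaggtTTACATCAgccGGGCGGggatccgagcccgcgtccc

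The pair of promoters differed in composition and in these letters. The Trib2 promoter was 71.0% G or C with 40 CpG dinucleotides, more CpG than 96.1% of the 32851 promoters in the table, and held 2 GC boxes and 0 composite elements. The Trib3 promoter was 58.3% G or C with 21 CpG, more than 75.2% of promoters, and held 4 GC boxes and 1 composite element, reading TTACATCA on the printed strand at bases 15 to 22 after the start. The composite element was found in 3.97% and the GC box in 35.7% of all promoters of this length. The letters of a TATA box (TATAAA, in 13.6% of promoters) occurred once in Trib3, at bases -166 to -161 from the start. The C/EBP dimer site TTGCNNAA (10.8% of promoters), the cAMP response element TGACGTCA (1.79%) and the FoxO element GTAAACA (3.65%) matched neither window.

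The Tribbles genes did not differ between genotypes in 1 direction. Trib2 and Trib3 had lower means in KO than in WT cells and Trib1 had a higher one, and the groups stayed apart for Trib2 alone, 1 of the 3 members, where the groups did not overlap for 17.2% of all genes tested (KO below WT for 9.05% and KO above WT for 8.18%). The median difference, KO minus WT, over the 3 members was that of Trib3, -0.39, and the median over all 19938 genes was -0.01. The family was chosen by these differences, so its median says nothing of a shift of the family. Each gene's level is read by its own probe set, so levels are compared between arrays and not between genes. In a bulk culture, fewer cells that express a gene and less RNA per cell cannot be told apart.

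**Figure D1:**
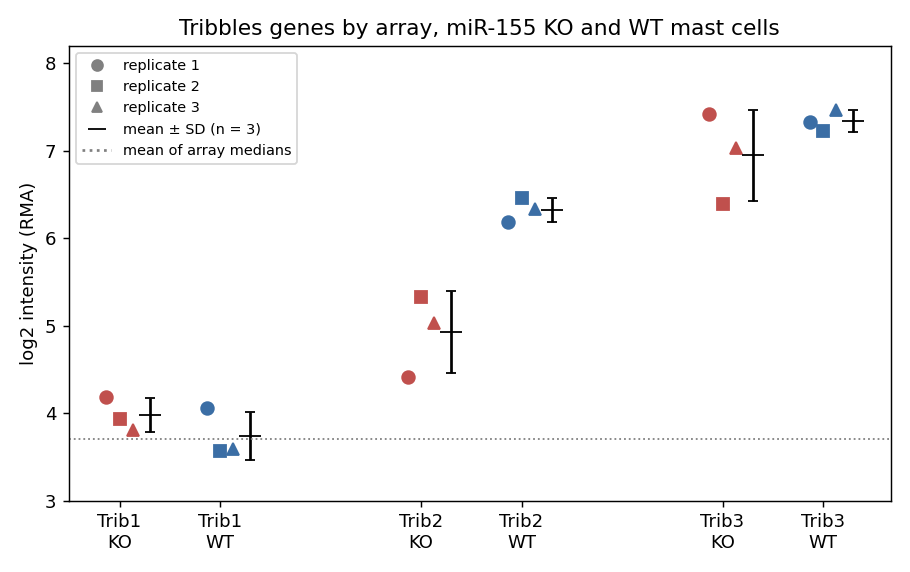
Log2 intensity (vertical axis) of Trib1, Trib2 and Trib3 on each array, KO to the left of WT for each gene, with the marker giving the replicate, black bars the mean ± SD of 3 arrays and the dotted line the mean of the array medians. All 3 KO arrays lie under all 3 WT arrays for Trib2, at most 5.33 against at least 6.19, while the groups overlap for Trib1 and Trib3.

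Trib2, on chromosome 12 and an adaptor for the degradation of C/EBPα, read 4.41, 5.33 and 5.03 in KO replicates 1, 2 and 3, against 6.19, 6.46 and 6.33 in WT replicates 1, 2 and 3. Every KO array lay under every WT array, with a gap of 0.86 between the highest KO and the lowest WT array. The means were 4.92 ± 0.47 in KO and 6.33 ± 0.14 in WT (log2, SD, n = 3 each), a difference of -1.40 (SE 0.21), which is 2.65-fold lower in KO. The KO mean and KO replicate 1 lay under 5, where much of the signal can be background. The size of the fold and the order of the KO arrays are therefore less well measured than the WT level. Only 1 of the 19938 genes had a more negative difference. Relative to the mean of the WT arrays the values were -1.92, -0.998 and -1.29 in KO replicates 1, 2 and 3. Among the KO arrays the lowest value was that of replicate 1, the array that stood apart. The difference was -1.15 (SE 0.13) without that array and -1.61 (SE 0.18) without KO replicate 2.

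Trib3, on chromosome 2 and a target gene of ATF4 and CHOP, read 7.42, 6.39 and 7.03 in KO replicates 1, 2 and 3, against 7.33, 7.23 and 7.47 in WT replicates 1, 2 and 3. KO replicate 1 lay within the WT values and KO replicates 2 and 3 lay under them. The means were 6.95 ± 0.52 in KO and 7.34 ± 0.12 in WT (log2, SD, n = 3 each), a difference of -0.39 (SE 0.22). That difference rested largely on 1 array. It was -0.11 (SE 0.14) without KO replicate 2 and -0.63 (SE 0.18) without KO replicate 1.

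Trib1 lies on chromosome 15, and its product, like that of Trib2, directs C/EBPα to degradation. It read 4.19, 3.94 and 3.81 in KO replicates 1, 2 and 3, against 4.06, 3.57 and 3.59 in WT replicates 1, 2 and 3. WT replicate 1 lay among the KO values. The means were 3.98 ± 0.19 in KO and 3.74 ± 0.28 in WT (log2, SD, n = 3 each), a difference of 0.24 (SE 0.15). These levels lie at the middle of all probe sets on the array, where much of the signal can be background, so a small difference of this gene is poorly measured. It was 0.13 (SE 0.15) without KO replicate 1 and 0.40 (SE 0.13) without WT replicate 1.

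For Trib2 and Trib3 the SD was larger among KO than among WT cultures, which was not tested. The SD of Trib2 over the 3 KO arrays was larger than that of 98.3% of all genes, and the SD of Trib3 larger than that of 98.7%. In WT arrays the same ranks were 61.4% for Trib2 and 54.5% for Trib3. Trib1 ranked at 81.7% in KO and 93.3% in WT arrays. These ranks are over all 19938 genes, of which 11664 stayed under 5 on every array, and not among genes of like level. The KO arrays were not ordered alike for these genes. KO replicate 1 had the lowest Trib2 and the highest Trib3 and Trib1 among KO arrays, and KO replicate 2 the highest Trib2 and the lowest Trib3.

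Genes that work with Tribbles proteins or act on them were listed by role in 10 lists, with 96 of 103 listed genes measured. By limma, 3 of the 96 rose and 2 fell at an adjusted p under 0.05, where 0.823% of all genes tested passed, 0.507% upward and 0.316% downward. At an unadjusted p under 0.05 there were 26 of the 96, and 12.7% of all genes tested, the share against which the unadjusted counts of single lists below can be read. The 3 that rose were Slc7a11, Asns and Foxo1, and the 2 that fell were Gfi1 and Ddit4. Differences were positive for 48 genes and negative for 48, with a median of 0.00 over the 96 genes and -0.01 over all genes.

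**Figure D2:**
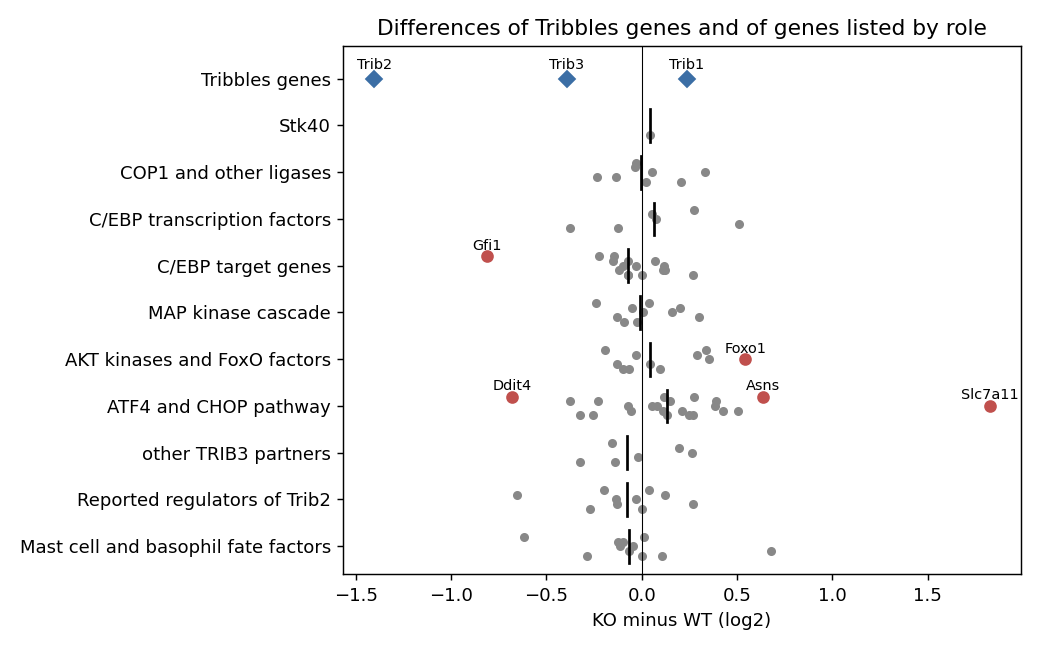
KO minus WT difference on the log2 scale (horizontal axis) of the 3 Tribbles genes (blue diamonds, top row) and of each measured gene of the 10 role lists (grey points), with genes past an adjusted p of 0.05 in red and named and the list median as a black bar. Trib2 at -1.40 lies below every gene of the lists, whose differences run from -0.81 (Gfi1) to 1.83 (Slc7a11).

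Of 8 measured genes for COP1, its partners and other ligases used by TRIB proteins, 0 rose and 0 fell by limma, and 1 had an unadjusted p under 0.05 (12.7% of all genes). Cop1 itself, the ligase that TRIB proteins recruit, averaged 6.78 ± 0.11 in KO and 6.57 ± 0.23 in WT arrays (SD, n = 3 each), a difference of 0.21 (SE 0.13, adjusted p = 0.579). A second probe set of Cop1 differed by 0.24. The smallest p belonged to Rbx1, the RING subunit of cullin ligases, at -0.23 (SE 0.10, adjusted p = 0.354), while another probe set of this gene differed by 0.01. Dda1, a subunit of the DET1 and DDB1 complex, differed by 0.33 (SE 0.17, adjusted p = 0.473). Stk40, the gene nearest to the Tribbles family among kinases, averaged 7.25 ± 0.14 in KO and 7.21 ± 0.06 in WT arrays (adjusted p = 0.922).

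C/EBPα, the best known substrate of TRIB1 and TRIB2, is controlled by these adaptors as a protein, which the arrays do not measure. At the level of RNA 0 of 6 listed C/EBP factors rose and 0 fell by limma, and 2 had an unadjusted p under 0.05 (12.7% of all genes). Cebpa read 3.69, 3.69 and 3.54 in KO replicates 1, 2 and 3, against 3.67, 3.87 and 3.76 in WT replicates 1, 2 and 3. These values overlap and lie at the array medians (difference -0.13, SE 0.09, adjusted p = 0.663). Cebpb, which encodes C/EBPβ of the inflammatory response, read 6.91, 6.22 and 6.29 in KO replicates 1, 2 and 3, against 6.00, 6.08 and 5.82 in WT replicates 1, 2 and 3. All KO arrays were above all WT arrays (8.18% of all genes), and the difference of 0.51 (SE 0.18, adjusted p = 0.253) did not pass. Cebpg, a partner of other C/EBP factors, differed by 0.27 (SE 0.16, adjusted p = 0.562).

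Of 16 C/EBP target genes of myeloid cells 0 rose, 1 fell and 15 did not pass (0.823% of all genes passed). An unadjusted p under 0.05 was found for 1 of the 16 (12.7% of all genes). Gfi1, a transcriptional repressor of granulocyte and stem cell development, read 5.61, 5.45 and 5.48 in KO replicates 1, 2 and 3, against 6.22, 6.39 and 6.37 in WT replicates 1, 2 and 3. It fell by 0.81 (SE 0.09, adjusted p = 0.00875), 1.76-fold lower in KO, with narrow spread in both groups. Without WT replicate 3 it did not pass (adjusted p = 0.0517). Of the 16 genes 14 stayed under 5 on every array, among them the granule genes Elane, Mpo and Prtn3, levels at which much of the signal can be background. Spi1, the myeloid factor PU.1, differed by 0.27 (SE 0.13, adjusted p = 0.437) and Prtn3 by -0.22 (SE 0.13, adjusted p = 0.567).

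Of 11 factors of mast cell and basophil fate 0 rose and 0 fell by limma, and 3 had an unadjusted p under 0.05 (12.7% of all genes). Lmo2, a bridging factor of haematopoietic transcription complexes, averaged 7.43 ± 0.12 in KO and 8.05 ± 0.24 in WT arrays (SD, n = 3 each), a difference of -0.62 (SE 0.13, adjusted p = 0.0760). Stat5a, a mediator of IL-3 signalling, differed by 0.68 (SE 0.15, adjusted p = 0.0924). Lmo2 and Stat5a each had groups that did not overlap, which was so for 17.2% of all genes tested. Mitf, the mast cell factor, differed by -0.29 (SE 0.12, adjusted p = 0.336), with -0.34 for another, dimmer probe set of the gene.

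The ATF4 and CHOP pathway, which controls Trib3, was the longest list and held the most changed genes, which went both ways. Of 23 measured genes 2 rose, 1 fell and 20 did not pass, where 0.507% of all genes rose and 0.316% fell. The median difference was 0.13. An unadjusted p under 0.05 was found for 11 of the 23 (12.7% of all genes), and 16 of the 23 had a higher mean in KO (48.0% of all genes did). Slc7a11, the cystine transporter, read 6.11, 5.86 and 6.69 in KO replicates 1, 2 and 3, against 4.17, 4.46 and 4.55 in WT replicates 1, 2 and 3, and rose by 1.83 (SE 0.20, adjusted p = 0.00827). Asns, asparagine synthetase, read 10.05, 9.84 and 10.07 in KO replicates 1, 2 and 3, against 9.31, 9.33 and 9.42 in WT replicates 1, 2 and 3, and rose by 0.63 (SE 0.09, adjusted p = 0.0269). Both stood clear of WT on all 3 KO arrays, whereas Trib3, relative to its WT mean, was at 0.08, -0.95 and -0.31 in KO replicates 1, 2 and 3. Ddit4, which restrains mTOR under stress, read 8.54, 8.47 and 8.65 in KO replicates 1, 2 and 3, against 9.20, 9.28 and 9.22 in WT replicates 1, 2 and 3. Its level fell by 0.68 in KO cells (SE 0.08, adjusted p = 0.0126).

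The factors of this pathway themselves did not pass. Atf4 averaged 8.72 ± 0.11 in KO and 8.58 ± 0.04 in WT arrays (SD, n = 3 each), a difference of 0.13 (SE 0.09, adjusted p = 0.629). Ddit3, the gene of CHOP, averaged 6.63 ± 0.21 in KO and 7.01 ± 0.19 in WT arrays, a difference of -0.38 (SE 0.14, adjusted p = 0.271). Ddit3 had its lowest value in KO replicate 2, at 6.42, the array with the lowest Trib3. The calls of this list were sensitive to single arrays. Without WT replicate 1 the adjusted p was 0.0542 for Slc7a11, 0.114 for Asns and 0.0618 for Ddit4. Asns did not pass without KO replicate 1 (adjusted p = 0.0620), KO replicate 3 (0.0895), WT replicate 2 (0.100) or WT replicate 3 (0.0771), nor Ddit4 without WT replicate 2 (0.0642) or WT replicate 3 (0.0656).

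**Figure D3:**
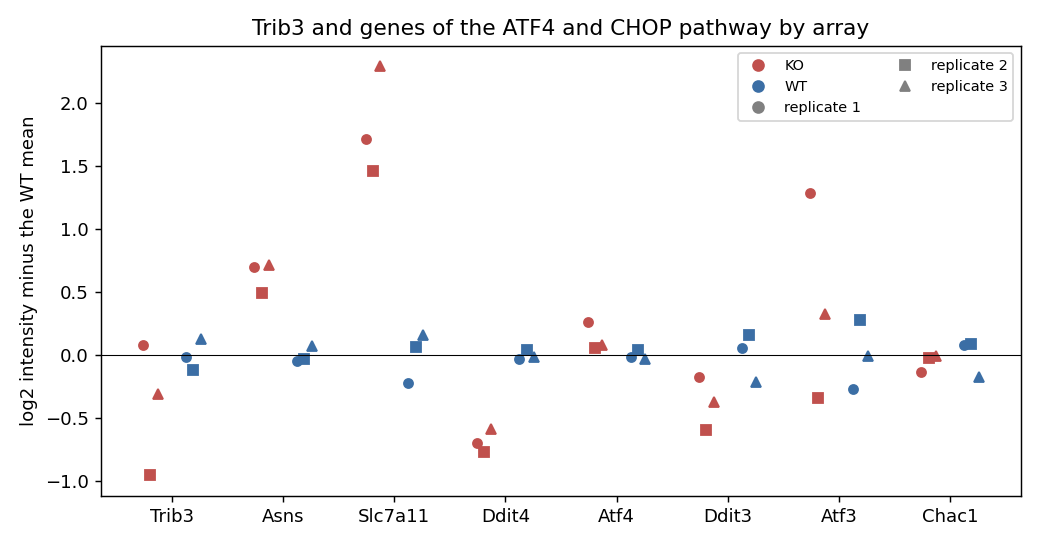
Log2 intensity minus the gene's WT mean (vertical axis) on each array for Trib3 and 7 genes of the ATF4 and CHOP list, KO in red to the left of WT in blue, with the marker giving the replicate. Asns and Slc7a11 lie above WT and Ddit4 below it on all 3 KO arrays, while Trib3 is spread from -0.95 in KO replicate 2 to 0.08 in KO replicate 1.

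The composite element of the Trib3 promoter was also present in promoters of this list. It was found for 7 of the 22 list genes with a promoter in the table (31.8%), against 4.51% of all 27025 genes. The genes were listed for their place in this pathway, so that share is not a test. These windows of 30 bases, with the element in capitals, show how it reads in the 2 genes that rose and in Atf3 and Chac1, a transcription factor and a glutathione-degrading enzyme of the same response.
Asns: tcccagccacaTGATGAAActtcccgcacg
Slc7a11: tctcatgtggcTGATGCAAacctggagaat
Atf3: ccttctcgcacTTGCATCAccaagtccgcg
Chac1: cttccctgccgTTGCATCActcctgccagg
The windows lie at chr6:7693214-7693243, chr3:50443661-50443690 and chr1:191183425-191183454 on the minus strand and at chr2:119351038-119351067 on the plus strand. Atf3 differed by 0.43 (adjusted p = 0.714), with KO replicate 1 at 5.68 and the other KO arrays at 4.06 and 4.72. Chac1 differed by -0.05 (adjusted p = 0.903). The other list genes with the element were Nupr1, Herpud1 and Vldlr, and none of them passed. They differed by 0.39 (adjusted p = 0.213), 0.21 (0.537) and -0.32 (0.607). Ddit4, which fell, held 0 elements from 250 bases before to 50 bases after the start, as did Atf4 and Ddit3. Elements farther from the start were not searched for, so these genes may hold one there. A link between the element and the differences was not tested.

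TRIB3 has been described as a partner of AKT, and TRIB proteins as partners of MAP kinase kinases. Of 11 AKT and FoxO genes 1 rose, 0 fell and 10 did not pass (0.823% of all genes passed). An unadjusted p under 0.05 was found for 4 of the 11 (12.7% of all genes). Foxo1, a transcription factor excluded from the nucleus by AKT, read 6.61, 6.47 and 6.64 in KO replicates 1, 2 and 3, against 6.14, 6.00 and 5.95 in WT replicates 1, 2 and 3. It rose by 0.54 (SE 0.09, adjusted p = 0.0400), and its call was lost whichever array was left out, with adjusted p from 0.0526 without KO replicate 2 to 0.138 without WT replicate 2. Akt1 differed by -0.07 (SE 0.10, adjusted p = 0.864), Mtor, the growth kinase, by 0.33 (SE 0.10, adjusted p = 0.167) and Pdpk1, the kinase that activates AKT, by 0.35 (SE 0.11, adjusted p = 0.201).

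In the MAP kinase cascade, 0 of 10 measured genes rose and 0 fell by limma, and 1 had an unadjusted p under 0.05 (12.7% of all genes). Map2k1, the kinase MEK1, averaged 8.94 ± 0.13 in KO and 8.96 ± 0.08 in WT arrays (SD, n = 3 each, adjusted p = 0.962). Map2k2 differed by 0.30 (adjusted p = 0.221), Map2k3 by 0.20 (adjusted p = 0.408) and the dim Map2k6 by -0.24 (adjusted p = 0.467). Of 6 other reported TRIB3 partners 0 rose and 0 fell by limma, and 2 had an unadjusted p under 0.05 (12.7% of all genes). Sqstm1, an autophagy receptor, differed by 0.27 (adjusted p = 0.269), Smad3, a mediator of TGF-β signalling, by -0.32 (adjusted p = 0.215) and Rela, a subunit of NF-κB, by 0.20 (adjusted p = 0.468).

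Of 10 measured genes reported to regulate Trib2 in other cells 0 rose and 0 fell by limma, and 2 had an unadjusted p under 0.05 (12.7% of all genes). Meis1, a homeobox factor of leukaemia that acts upstream of Trib2 there, averaged 8.01 ± 0.19 in KO and 8.28 ± 0.08 in WT arrays (SD, n = 3 each), a difference of -0.27 (SE 0.11, adjusted p = 0.349). E2f1, a factor of S phase entry, read 5.47, 6.34 and 6.26 in KO replicates 1, 2 and 3, against 6.64, 6.59 and 6.80 in WT replicates 1, 2 and 3. Its difference of -0.65 (SE 0.21, adjusted p = 0.209) did not pass, and no KO array reached the WT values (KO below WT for 9.05% of all genes). As with Trib2, the lowest of the 6 values was that of KO replicate 1.

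The cell cycle list was low on the same array. Of its 19 measured genes 0 rose and 0 fell by limma, 3 had an unadjusted p under 0.05 (12.7% of all genes), and all 19 had a negative difference (52.0% of all genes). The list's mean level was 5.83, 6.90 and 7.30 in KO replicates 1, 2 and 3, against 7.44, 6.93 and 7.52 in WT replicates 1, 2 and 3. On KO replicate 3 the list lay within the WT values, and Trib2 was at -1.29 relative to its WT mean. Trib2 read 5.33 on KO replicate 2 and 6.46 on WT replicate 2, where the list was at 6.90 and 6.93. The difference of Trib2 was -1.15 without KO replicate 1, the array with the lowest cell cycle level. A link between the levels of this list and of Trib2 was not tested.

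Across the 6 arrays the genes nearest to each Tribbles gene were taken by the root mean square difference between gene-centred log2 values, among 7600 genes with a mean of at least 5. Nearest to Trib2 were Pgr, the progesterone receptor, at 0.15, Gp5, a platelet glycoprotein, at 0.17 and Slc45a3, a solute carrier, at 0.18, where the median candidate was at 0.76. Pgr read 3.90, 4.92 and 4.95 in KO replicates 1, 2 and 3, against 5.67, 6.02 and 6.01 in WT replicates 1, 2 and 3. Nearest to Trib3 were Adgrg1, an adhesion receptor, at 0.14, Slc2a3, a glucose transporter, at 0.15 and Ccl2, a chemokine, at 0.16 (median candidate 0.39). All 3 had, like Trib3, their lowest value on KO replicate 2, at 6.19, 9.91 and 8.94. Nearest to Trib1 were Lce1k at 0.08, Alkbh3, a DNA repair enzyme, at 0.08 and Akna, a transcription factor, at 0.09 (median candidate 0.28). Pgr met the minimum mean of 5 through its WT arrays, with means of 4.59 in KO and 5.90 in WT arrays. Lce1k met it through its KO arrays, with 5.10 in KO and 4.96 in WT arrays. The minimum thus admits dim genes by the group in which they are high. The nearest genes were selected for their likeness, and their values carry no test.

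**Figure D4:**
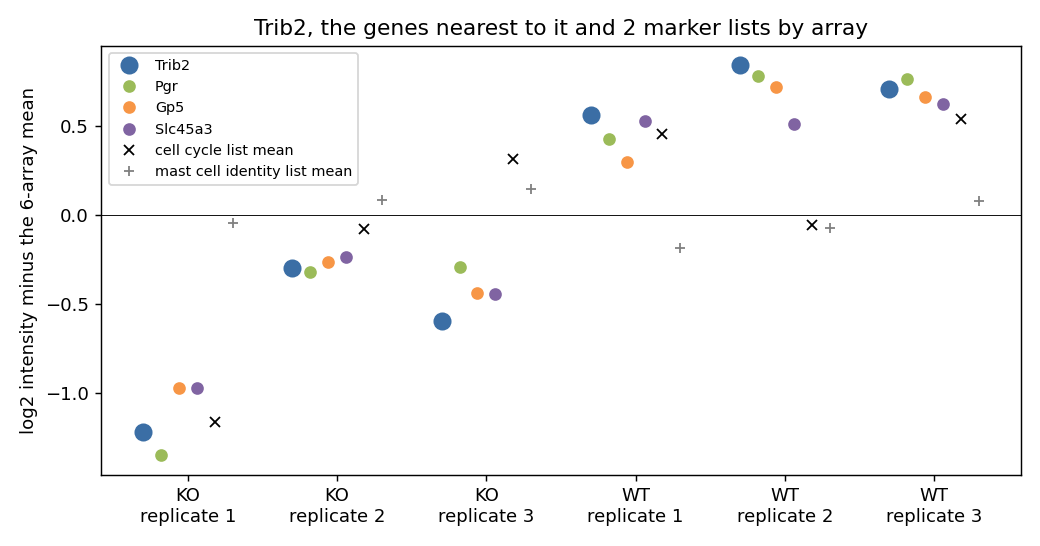
Log2 intensity minus the mean over the 6 arrays (vertical axis) on each array for Trib2, the 3 genes nearest to it, and the mean of the cell cycle and mast cell identity lists. Trib2 and its nearest genes lie under 0 on all 3 KO arrays and above it on all 3 WT arrays, the cell cycle list is lowest on KO replicate 1 and above 0 on KO replicate 3, and the mast cell list stays near 0 throughout.

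Most markers of other cells were dim. Of 11 macrophage and monocyte genes 9 stayed under 5 on every array, including Csf1r, Adgre1 and C1qa, with Cd68 and Cx3cr1 as the exceptions, and the list's mean level was 3.91 to 4.07 in KO and 4.13 to 4.22 in WT arrays. Of this list 0 rose and 1 fell (0.316% of all genes fell), Cx3cr1, the fractalkine receptor, by 0.95 (adjusted p = 0.0280). Of the 11 genes 10 had a lower mean in KO (52.0% of all genes) and 3 had all KO arrays under all WT arrays (9.05% of all genes). An unadjusted p under 0.05 was found for 2 of the 11 (12.7% of all genes). The Cx3cr1 call held without KO replicate 2 (adjusted p = 0.0178) and was lost without any other single array, from 0.0585 without KO replicate 1 to 0.0911 without WT replicate 1. All 13 neutrophil and all 9 lymphocyte genes stayed under 5 on every array. So did 5 of 7 erythroid and megakaryocyte genes, all but Epor and Itga2b. Of 10 basophil and eosinophil genes 7 did, all but Mcpt8, Prss34 and Cd200r3. Mcpt8 varied between cultures of both genotypes. It read 5.64, 6.18 and 7.58 in KO replicates 1, 2 and 3. In WT replicates 1, 2 and 3 it read 7.56, 5.23 and 7.26. Prss34 averaged 4.25 in KO and 4.94 in WT arrays, and Cd200r3 8.50 and 8.42. Of 13 neutrophil, 10 basophil and eosinophil, 7 erythroid and megakaryocyte and 9 lymphocyte genes 0 passed by limma, with 0, 1, 0 and 0 at an unadjusted p under 0.05 (12.7% of all genes). Of 13 mast cell identity genes 0 passed by limma, with 3 at an unadjusted p under 0.05 (12.7% of all genes). The 3 were Hdc, at 0.84 (adjusted p = 0.233), Mcpt4, at 0.44 (adjusted p = 0.174), and Mitf, at -0.29 (adjusted p = 0.336). Hdc and Mcpt4 had all KO arrays above all WT arrays (8.18% of all genes). A higher mean in KO was found for 8 of the 13 and a lower one for 5. The list's mean was 10.26 to 10.45 in KO and 10.12 to 10.38 in WT arrays. The part of other cell types or of cell division in the difference of Trib2 was not tested.

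None of the genes around the Tribbles loci passed the test. The 3 nearest measured protein-coding genes on each side, in the gene order of GRCm38.p6, gave 6 genes for each member, chosen after the data had been seen. By limma 0 of the 6 around Trib2 rose or fell, with 1 at an unadjusted p under 0.05. The gene on 1 side of Trib2, Lpin1, a phosphatidate phosphatase, differed by -0.18 (adjusted p = 0.398), and that on the other side, Lratd1, which was dim in both groups, by -0.36 (adjusted p = 0.258). Around Trib1 and Trib3 0 of 6 each passed, with 2 and 1 at an unadjusted p under 0.05, where 12.7% of all genes had one. All KO arrays lay under all WT arrays for 2 of the 6 genes around each member (9.05% of all genes). Around Trib2 these were Lpin1 and Lratd1.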

How the data were processed

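RNA of 6 cultures was measured on 1 array each. The authors deposited log2 intensities computed with RMA (submitters' processing notes); its version and the genome build are not given in the sources used here. The column medians were alike and no further normalization was applied. Of 35557 probe sets 21789 carried 1 gene symbol, 1621 several and 12147 none in the platform annotation; the probe set with the highest mean stood for a gene, leaving 19938. Each gene was fitted with limma 3.58.1 (R 4.3.3, lmFit and eBayes, genotype as the only term, two-sided), and every adjusted p is Benjamini-Hochberg adjusted over all 19938 genes, with a threshold of 0.05. SE is the moderated standard error. The fit was also run on simulated data, with an outcome that is not given here and that lends the results no weight. The members and lists were chosen with earlier results of these data known. Genes named are the members, Mir155, 11 genes fixed by name, list members past the threshold and per list the 3 members of lowest p. The 3 nearest to each member are named as well. Atf3, Chac1, Nupr1, Herpud1, Vldlr, Elane, Mpo, the neighbours and the promoter motifs were chosen after the data were seen. So were the cell markers Csf1r, Adgre1, C1qa, Cd68, Cx3cr1, Hdc, Mcpt4, Mcpt8, Prss34, Cd200r3, Epor and Itga2b. The number of arrays, 3 per group, limits the precision. Alternatives were a replicate block, array weights, trend and robust priors, median centring, quantile normalization, a minimum mean of 5, averaged probe sets, every probe set tested and leaving out each array. A search of 3' untranslated regions for miR-155 seed matches was not done here.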

Additional observations from a re-analysis of the deposited data

How the results depend on the processing

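The differences of the members kept their sign in all 9 alternatives that moved them; the replicate block and averaged probe sets leave them as they are by construction. Trib2 ran from -1.61 to -1.15, Trib3 from -0.63 to -0.11 and Trib1 from 0.13 to 0.40, each range set by leaving out 1 array. With the replicate block, where arrays of the same number were paired, 199 genes passed in all, and of the role lists 2 rose and 3 fell, 5 together as without it; Foxo1 no longer passed (adjusted p = 0.0582) and Lmo2 passed (0.0477). The deviations of same-numbered arrays correlated at -0.01, -0.06 and 0.24, and 2 of 6 arrays correlated best with their own number, so the numbers were not taken as pairs. Testing every probe set left 4 genes in all, against 164, and 0 of the role list genes by limma (21 at an unadjusted p under 0.05, lowest adjusted p 0.0840); this fit tests 35557 probe sets. Leaving out 1 array gave 15 to 167 genes in all and 1 to 5 role list genes. The counts in all were 103 without KO replicate 1, 167 without KO replicate 2 and 74 without KO replicate 3, and 15, 43 and 27 when WT replicate 1, 2 or 3 was left out. Of the role lists only Gfi1 passed without WT replicate 1, and only Slc7a11 without WT replicate 3. Of 430 values of named role list genes under the alternatives 405 stayed on their side of the threshold, 22 lost the call and 3 gained it, Lmo2 with the block and with trend and robust priors (adjusted p = 0.0492) and Stat5a without KO replicate 2 (0.0436). Signal limits what can be said of Trib1 and Cebpa, which lie at the array medians. It also limits the size of the Trib2 fold, as the KO mean of Trib2 was 4.92.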
